A study of Rattus norvegicus with 90 samples.

Results

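The genes described here are 7 genes of mature microglia, Adgrg1, Selplg, Bin1, Sparc, Cst3, Golm1 and Lpcat2, out of 32623 genes in the count table. They were selected on their levels in microglia of uninjured rats at postnatal day (P) 7, 12 and 22, so those levels are given as a description, with no test, and the same genes are then followed through injury and treatment. Each symbol matched 1 row of the table, no other annotated gene overlapped any of the 7, and all 7 passed the filter on low counts in every comparison, with at least 1062 reads in each library.

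Microglia, the brain's own macrophages, were isolated from male Wistar Han rat pups with beads against CD11b/c. Control pups received PBS by intraperitoneal injection from P1 to P5 and a sham dose at P5, P10 or P20. Injured pups received IL-1β at 20 µg per kg over the same days, which models systemic inflammation around birth, and the sham dose. Treated pups received IL-1β and then 20, 50 or 125 M human umbilical cord mesenchymal stromal cells per kg (HuMSC20, HuMSC50 and HuMSC125), given through the nose or a vein at P5, P10 or P20. Brains were taken 48 h later, at P7, P12 or P22. The 90 libraries made 30 groups of 3, and each of the 6 combinations of age and route formed 1 sequencing run of 15 libraries. Tissue at P7 was dissociated with a kit not used for the older brains, so age, run and, for P7, kit cannot be told apart. Nothing in the labels says that the 3 libraries of a group came from separate animals, and the p-values measure the spread between these samples.

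Microglia settle in the brain before birth and go on dividing in the first weeks of life. As they mature they stop dividing, lower an early program of lipid-handling and phagocytic genes and raise surface receptors and secreted factors of the adult resident cell. In bulk samples such as these, fewer cells of a type and less RNA per cell cannot be told apart.

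At the surface, Adgrg1 (GPR56) is an adhesion G protein-coupled receptor that binds phosphatidylserine, and Selplg (PSGL-1) is the mucin-like ligand of the selectins. Sparc is a secreted collagen-binding matricellular protein, and Cst3 (cystatin C) is a secreted inhibitor of cysteine proteases such as the cathepsins. Inside the cell, Bin1 is a membrane-curving protein of endocytosis, Golm1 is a membrane protein of the Golgi, and Lpcat2 is a lysophosphatidylcholine acyltransferase that also makes platelet-activating factor (PAF). In the coordinates of the count table, for which no source used here gives a genome build, Adgrg1 lies on chromosome 19 from 10423501 to 10460674, Lpcat2 on chromosome 19 from 15469303 to 15540773 and Sparc on chromosome 10 from 40742400 to 40764185. Cst3 lies on chromosome 3 from 143219686 to 143223615, Selplg on chromosome 12 from 48577905 to 48579196, Golm1 on chromosome 17 from 5382034 to 5409038 and Bin1 on chromosome 18 from 25163561 to 25222135.

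The 250 bases before the start site were compared where RefSeq (GRCr8) gave them. This was for 5 of the 7 genes, among them Bin1, which fell with age, and not for Selplg or Golm1. The bases are shown for Adgrg1 (chr19:10047139-10047388, minus strand) and Sparc (chr10:40038817-40039066, minus strand), whose windows lie wholly outside the annotated gene. In the other windows 250 bases of Bin1, 179 of Cst3 and 139 of Lpcat2 lay inside the annotated gene. Capitals mark CAGAC on either strand (GTCTG when read on the other strand), the core of the SMAD box through which TGF-β signals act.
Adgrg1: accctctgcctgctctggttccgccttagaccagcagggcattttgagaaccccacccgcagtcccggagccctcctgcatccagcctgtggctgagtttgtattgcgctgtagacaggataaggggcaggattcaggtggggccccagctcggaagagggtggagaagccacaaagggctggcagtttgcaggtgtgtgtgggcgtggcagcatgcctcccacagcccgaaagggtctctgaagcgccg
Sparc: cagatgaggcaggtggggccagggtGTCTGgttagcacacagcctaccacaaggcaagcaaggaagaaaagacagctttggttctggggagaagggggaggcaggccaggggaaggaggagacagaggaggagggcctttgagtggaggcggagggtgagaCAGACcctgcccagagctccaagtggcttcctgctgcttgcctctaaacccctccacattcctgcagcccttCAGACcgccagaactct
The Sparc window held 3 CAGAC matches and the Adgrg1 window 0. Among the 5 windows, 3 held CAGAC (Sparc, Cst3 and Bin1), against 42.9% of 33469 windows of the same length. GGGCGG, a GC box, was found in 3 (Bin1, Cst3 and Lpcat2), against 30.5% of windows. GAGGAA, a motif of PU.1 sites, was in 0 of 5 and in 23.3% of windows, and TGANTCA, the AP-1 site, was in 0 of 5 and in 6.34%. Shorter PU.1 matches such as GGAA were not searched for. Both strands were searched, and the motifs did not overlap one another in the 2 windows shown. These matches describe letters in the windows and no factor's binding.

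The libraries held 11.4 to 42.4 M counted reads (median 18.9 M). Mitochondrial genes made up between 0.555% and 16.5% of a library's counted reads, and the part of this in the results was not tested. The microglial identity genes were present at every age. In the 6 control libraries of each age, the purinergic receptor gene P2ry12 had medians of 1545, 2022 and 2428 CPM (read counts scaled to a common library size) at P7, P12 and P22, and the fractalkine receptor gene Cx3cr1 had 994, 1563 and 2987 CPM. In 4 libraries neuron markers stood at least 1.5 log2 units above the run's median. These neuron-rich libraries were HuMSC20 replicate 1 and HuMSC125 replicates 1 and 2 of the P7 intravenous run and HuMSC125 replicate 2 of the P12 intranasal run.

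In control microglia 6 of the 7 genes had higher levels at P12 than at P7 and at P22 than at P12, with no overlap between the libraries of neighbouring ages. The share of all genes that separated between ages in this way is not given here. Bin1 overlapped between P7 and P12 and was lower at P22. Bin1 therefore goes against the label of a gene that comes up with maturation. All of the levels that follow are library-scaled CPM in 6 control libraries per age, 3 from each route.

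The surface gene Selplg had the widest range between ages. Its control levels lay between 97.2 and 277 CPM at P7 (median 115), between 333 and 669 at P12 (median 466) and between 1845 and 4249 at P22 (median 2793). The mean at P22 was 20.2 times that at P7. At each age the 3 intranasal-run controls lay above the 3 intravenous-run controls, for example 584, 669 and 529.5 CPM against 349.9, 402 and 333 at P12, a difference in level that cannot be told apart from the run. Adgrg1 lay between 120.1 and 179.6 CPM at P7, between 270.3 and 321 at P12 and between 568 and 728 at P22. Its 3 ranges were far apart, and the mean at P22 was 4.51 times that at P7.

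Of the secreted products, Sparc lay between 3167 and 4471 CPM at P7, between 6648 and 7939 at P12 and between 12055 and 15846 at P22, a ratio of means of 3.70 between P22 and P7. Cst3 lay between 7697 and 12103 CPM at P7, between 12887 and 17020 at P12 and between 25475 and 34552 at P22, a ratio of 3.31. For both genes the step from P12 to P22 was about as large, as a ratio, as the step from P7 to P12 or larger: 1.91 after 1.94 for Sparc and 2.08 after 1.59 for Cst3. Reads of Cst3 made up 2.85% of all counts in the P22 controls on average.

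The genes that act inside the cell had smaller ratios. Golm1 lay between 323 and 416 CPM at P7, between 562 and 695 at P12 and between 781 and 1088 at P22, 2.49 times higher at P22 than at P7 by the means. Lpcat2 lay between 295 and 354 CPM at P7, between 393 and 583 at P12 and between 612 and 749 at P22, a ratio of 2.14. Bin1 lay between 813 and 1246 CPM at P7 and between 818 and 1025 at P12, ranges that overlapped. At P22 it lay between 454 and 636, below every younger control library, and its mean at P7 was 1.87 times that at P22.

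**Figure D1:**
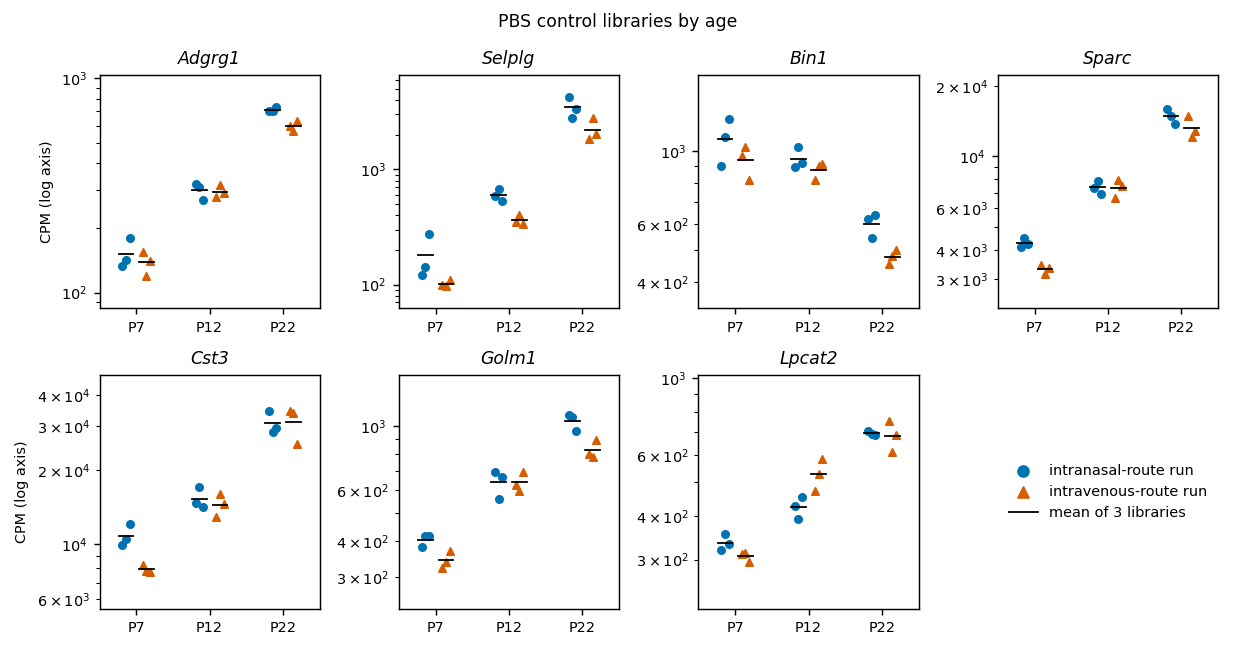
CPM (log axis) of each gene in the 18 PBS control libraries at P7, P12 and P22. Circles are libraries of intranasal runs, triangles those of intravenous runs, and black lines the mean of 3 libraries. All genes but Bin1 step up at both intervals, most of all Selplg (medians of 115, 466 and 2793), while Bin1 is lower at P22 than at P12.

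The same ages were then compared in the injured and treated libraries, which came from the same 6 runs. The genes were chosen with earlier results of these data known, so this test is not independent of the choice. Their counts were summed per run, with the run as the replicate (n = 2 per age). The sums of the P7 intravenous and P12 intranasal runs included their neuron-rich libraries. The age test was not repeated without these libraries. From P7 to P22 the test called all 7 genes, 6 higher and Bin1 lower, while it called 8.38% of 17375 genes higher and 10.9% lower. The median difference was 1.71 on the log2 scale over the 7 genes and -0.03 over all genes tested.

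Selplg rose from P7 to P22 by 4.39 ± 0.30 on the log2 scale (± SE, edgeR adjusted p = 0.000345). The 24 single libraries of each age lay between 47.8 and 287 CPM at P7, between 190.5 and 884 at P12 and between 1654 and 4373 at P22. Adgrg1 rose by 2.09 ± 0.18 (adjusted p = 0.000773), Cst3 by 1.92 ± 0.30 (adjusted p = 0.00799) and Sparc by 1.71 ± 0.23 (adjusted p = 0.00476). In these 4 genes no single P22 library overlapped a P7 library. The share of all genes without such overlap is not given here.

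Golm1 rose by 1.05 ± 0.20 (adjusted p = 0.0171) and Lpcat2 by 0.92 ± 0.20 (adjusted p = 0.0249), and Bin1 fell by 0.85 ± 0.16 (adjusted p = 0.0167). Golm1 was the only one of the 7 whose P7 and P22 libraries overlapped, through a single library, HuMSC50 replicate 3 of the P7 intravenous run at 790.2 CPM. The next highest P7 library had 523 CPM of Golm1 and the lowest P22 library 603 CPM. Calls depended on single runs. Without the P22 intranasal run the test called 3 of 7 genes, Adgrg1, Selplg and Sparc, and Bin1, Cst3, Golm1 and Lpcat2 had adjusted p = 0.131, 0.0510, 0.136 and 0.175. Without the P22 intravenous run Bin1 (adjusted p = 0.156) and Lpcat2 (0.0764) were not called, and without the P7 intravenous run Golm1 (0.0519) and Lpcat2 (0.0810) were not.

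Bin1 fell between P12 and P22. In that interval the test called 3 of 7 genes, Selplg higher by 2.40 ± 0.28, Adgrg1 higher by 1.13 ± 0.17 and Bin1 lower, having fallen by 0.88 ± 0.16 (adjusted p = 0.00522, 0.0165 and 0.0358), against 1.27% of all genes called higher and 2.56% lower. From P7 to P12 Bin1 had a difference of 0.03 ± 0.16. In that interval edgeR called 0 of 7 genes, beside 0.046% of all genes called higher and 0.0518% lower. Before adjustment 4 of the 7 and 1920 of 17375 genes had p under 0.05 in edgeR. DESeq2 called 3 of the 7, and its share over all genes is not given here. Selplg came closest in edgeR (1.99 ± 0.27, adjusted p = 0.0760). From P12 to P22, leaving out the P12 intranasal or the P12 intravenous run left 0 of 7 genes called, and leaving out the P22 intranasal run left 1, Selplg. The call of Bin1 in that interval was also lost without the P22 intravenous run (adjusted p = 0.313) and with median-of-ratios size factors (0.0519).

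**Figure D2:**
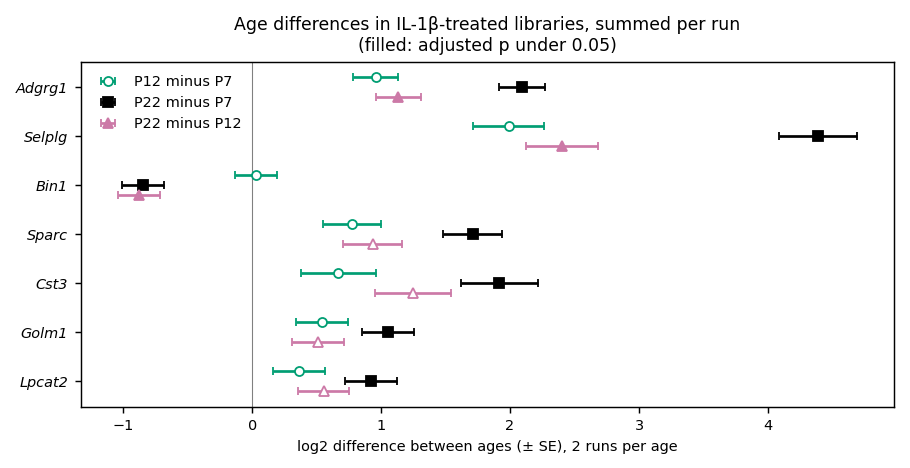
Differences between ages (log2, ± SE) of the 7 genes in IL-1β-exposed libraries, injured and treated, summed per run with 2 runs per age. Filled symbols passed an edgeR adjusted p under 0.05. All 7 squares (P22 minus P7) are filled, from -0.85 for Bin1 to 4.39 for Selplg, and no circle (P12 minus P7) is.

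The levels of other cells' markers also differed between ages, and their part in the results was not tested. Sparc and Cst3 are also made by astrocytes, Sparc by vessel cells and Selplg by blood leukocytes. Sources of the other genes outside microglia are not listed here. Between P7 and P22 in the same summed libraries 0 of 12 astrocyte markers were called, while 5 of 10 endothelial, 4 of 10 mural and 7 of 12 oligodendrocyte markers rose and 6 of 15 neuron markers fell. In control libraries the summed endothelial markers lay between 379 and 769 CPM at P7 and between 808 and 1048 at P22, the summed astrocyte markers between 392 and 1014 and between 675 and 903, and the summed oligodendrocyte markers between 290 and 396 and between 1626 and 3349. Of the astrocyte, endothelial and mural markers in the table, 0 were without reads at any age. Among leukocyte markers 2 of 11 neutrophil markers rose, Mpo (2.93 ± 0.42) and the G-CSF receptor gene Csf3r. Of 7 monocyte markers 2 rose and 2 fell, of 11 T and NK cell markers 1 rose and 1, Cd8a, fell (-5.51 ± 0.35), and of 4 B cell markers 1 fell. Of 8 border macrophage markers 1 rose and 2 fell. In control libraries the summed neutrophil markers lay between 166 and 259.7 CPM at P7 and between 472 and 623 at P22, and the summed monocyte markers between 946 and 1367 and between 559 and 698. The summed T and NK cell markers lay between 28.1 and 44.0 CPM at P7 and between 8.84 and 13.2 at P22. These summed levels did not overlap between the ages, the neutrophil markers being higher and the other 2 lists lower at P22. In the P7 controls 2 of the 12 neutrophil markers had no reads, and in the P22 controls 0.

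The pathways around the 7 genes were followed in the same P22 and P7 comparison. Of 29 other mature microglial genes 13 rose and 1 fell, among them the microglial surface gene Tmem119 (2.75 ± 0.23), the IL-10 receptor gene Il10ra (1.51 ± 0.20) and the fructose transporter gene Slc2a5 (1.72 ± 0.23). P2ry12 was not called (0.63 ± 0.25, adjusted p = 0.114). Of 22 early postnatal genes 12 fell and 1 rose, with Spp1 (osteopontin) at -4.74 ± 0.34, the growth factor gene Csf1 at -3.51 ± 0.31 and the lysosomal glycoprotein gene Gpnmb at -2.57 ± 0.23. Their summed level in control libraries did not fall, with medians of 9591, 9298 and 11920 CPM at P7, P12 and P22. All 22 cell cycle genes tested fell, with the proliferation gene Mki67 at -4.16 ± 0.22. The list medians were 0.85, -1.22 and -3.81, beside -0.03 over all genes tested.

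Among the cysteine proteases that cystatin C inhibits and the other cystatins, 3 of 13 rose and 1 fell. Cathepsin S (Ctss) rose by 2.84 ± 0.26, Cathepsin F (Ctsf) rose by 1.54 ± 0.17, and the intracellular cystatin gene Cstb fell by 1.25 ± 0.16. In phospholipid remodelling and PAF signalling, where Lpcat2 acts, 3 of 14 rose and 2 fell. The PAF receptor gene Ptafr rose by 1.38 ± 0.22, while the acyltransferase genes Mboat1 and Lpcat1 fell by 1.62 ± 0.14 and 0.79 ± 0.12. Lpcat2 and Lpcat1, which catalyse related reactions, thus moved in opposite directions between the ages.

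In the selectin ligand pathway around Selplg, 4 of 18 genes rose and 1 fell. The sulfotransferase gene Tpst1 rose by 1.16 ± 0.15 and the fucosyltransferase gene Fut4 by 0.98 ± 0.16, whereas Fut7, whose product fucosylates selectin ligands, fell by 1.79 ± 0.20. The other lists had shares called near or below those of all genes tested (8.38% higher and 10.9% lower), and their counts show nothing particular to them. In endocytosis and membrane curvature, where Bin1 acts, 1 of 18 fell, the clathrin light chain gene Clta (by 0.78 ± 0.17), and 0 rose. In adhesion receptor signalling 1 of 16 fell, Gna13 (by 0.64 ± 0.16), in matricellular and TGF-β genes 2 of 17 rose, Tgfbr2 and Smad7 (0.66 ± 0.14 and 0.68 ± 0.18), and of 12 other Golgi genes 0 passed the test.

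Over the log2 CPM of all 90 libraries, which share age and run, the genes most like each of the 7 were found among 10889 genes. The tight junction gene F11r followed Adgrg1 with r = 0.974, the protease inhibitor gene Spint1 followed Sparc with r = 0.980, the metalloproteinase gene Mmp28 followed Selplg with r = 0.969 and Tmed3 followed Cst3 with r = 0.978. The formin gene Fmnl3 followed Golm1 with r = 0.954. Lpcat2 was most like Ptafr (r = 0.958), which encodes the receptor of PAF. Bin1 was most like Kifc1, a mitotic kinesin gene, with r = 0.940, and then the GTPase gene Hras with r = 0.931. The mean control level of Kifc1 went from 76.4 CPM at P7 to 61.4 at P12 and 16.7 at P22. In control libraries the summed cell cycle genes lay between 2522 and 3191 CPM at P7 and between 1408 and 1863 at P12. Bin1 overlapped between these ages, and any link of Bin1 to cell division was not tested.

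Among the 7 genes themselves, pairs without Bin1 had r of at least 0.815 over the 90 libraries and pairs with Bin1 had r of at most -0.561. Once each library was set against the mean of its own group, the 21 pairs ran only from -0.284 (Cst3 with Golm1) to 0.473 (Adgrg1 with Cst3). A pair of libraries, chosen after their values were seen, carried part of these: without HuMSC50 replicate 3 of the P7 intravenous run and injured replicate 1 of the P22 intranasal run, Cst3 with Golm1 came to 0.14 and Bin1 with Golm1 went from 0.454 to 0.188. The first library had Bin1 at 1730 CPM and Golm1 at 790.2 CPM, against run medians of 825 and 364, with Adgrg1 at 80.5 CPM against 146. The second had Cst3 at 50422 CPM against a run median of 30055, and Golm1 at 603 CPM against 1038. In both libraries the summed mature microglial genes were the lowest, and the summed early postnatal genes the highest, of the 15 libraries of the run. The median of that early postnatal sum did not fall from P7 to P22 in control libraries, so it is no measure of age.

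Injury was compared with control within each run, to see what IL-1β had left in microglia. In 42 tests, 7 genes in 6 runs, 1 was called by edgeR and 4 by DESeq2, and 8 had p under 0.05 before adjustment. The share of all genes that DESeq2 called is not given, here or below, so its calls have no background beside them. Over all genes, between 538 of 14698 (P7 intravenous run) and 2856 of 13872 (P7 intranasal run) had p under 0.05 before adjustment in edgeR. The edgeR call was Lpcat2 in the P7 intranasal run, where 5.57% of all genes were called. Control libraries had 319.6, 354 and 332 CPM of Lpcat2 and injured libraries 419, 415 and 404. All 3 injured libraries lay above all 3 controls, and the difference was 0.32 ± 0.07 on the log2 scale (adjusted p = 0.0135). Where groups of 3 libraries are said not to overlap, here and below, the share of all genes that did so is not given. Such separation is a description and adds no support to a difference. Leaving out a single library ended the call in 3 cases: injured replicate 1 (adjusted p = 0.0567), injured replicate 3 (0.0534) and control replicate 1 (0.0640).

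In the same run Cst3 and Bin1 lay lower in injured libraries without passing the test in edgeR. Cst3 had 9916, 10465 and 12103 CPM in control and 6565, 9153 and 7280 CPM in injured libraries (-0.48 ± 0.15, adjusted p = 0.0821). Bin1 had 899.8, 1100.3 and 1246 CPM in control and 771, 893 and 845 CPM in injured libraries (-0.35 ± 0.11, adjusted p = 0.0815). Neither pair of groups overlapped, which is given as a description only. DESeq2 called both (adjusted p = 0.0244 for Cst3 and 0.0313 for Bin1), and so did edgeR for Cst3 without injured replicate 2 (adjusted p = 0.0369) and for Bin1 without control replicate 1 (0.0185).

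In the other 5 runs edgeR called 0 of 7 genes for injury. The background was 0.034% of all genes in the P7 intravenous run, 2.76% in the P12 intranasal run, 0.0144% in the P12 intravenous run, 0% in the P22 intranasal run and 0.00713% in the P22 intravenous run. In the P12 intranasal run Selplg had 584, 669 and 529.5 CPM in control and 339.9, 525 and 190.5 CPM in injured libraries. That difference was -0.74 ± 0.27 (adjusted p = 0.142), and without injured replicate 2 it was -1.15 and called (adjusted p = 0.0319). In the P22 intravenous run Adgrg1 had 594, 568 and 629 CPM in control and 395, 487 and 495 CPM in injured libraries (-0.36 ± 0.10, adjusted p = 0.184). DESeq2 called that difference (adjusted p = 0.0233).

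**Figure D3:**
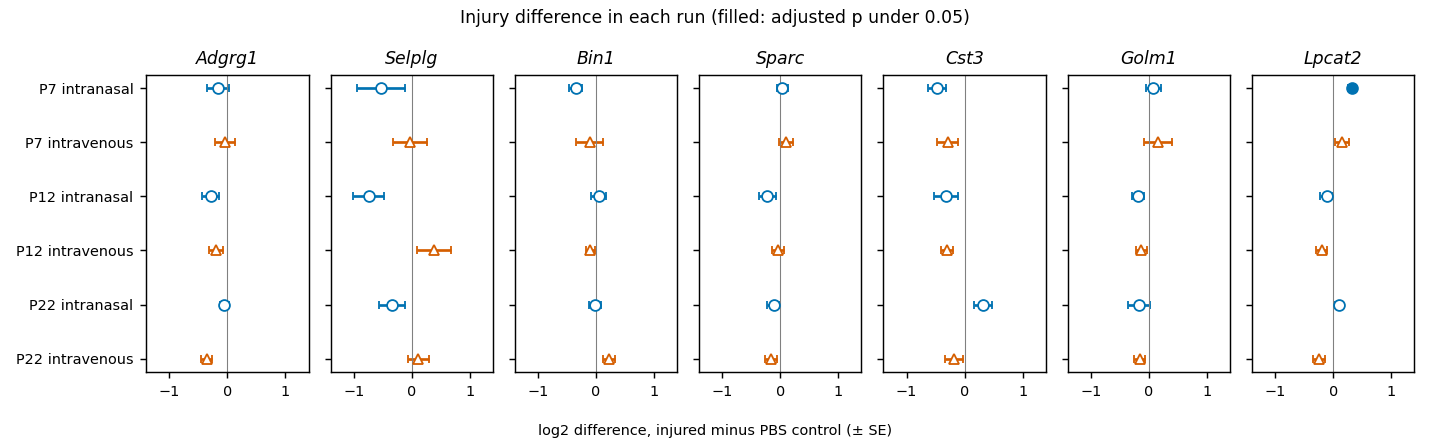
Injured minus control difference (log2, ± SE) of the 7 genes in each of the 6 runs, with circles for intranasal and triangles for intravenous runs. The filled symbol, Lpcat2 in the P7 intranasal run at 0.32, is the 1 of 42 tests past an adjusted p of 0.05. Adgrg1 lies left of 0 in all 6 runs.

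One fit of the 36 control and injured libraries gave the injury difference over both routes at each age. At P7 it called 3 of 7 genes, where 7.65% of 14605 genes were called. Cst3 fell by 0.40 ± 0.11 (adjusted p = 0.0189), Bin1 fell by 0.24 ± 0.07 (adjusted p = 0.0334) and Lpcat2 rose by 0.23 ± 0.06 (adjusted p = 0.0242). In the intravenous run Cst3 had 8287, 7777 and 7697 CPM in control and 6748, 6393 and 6363 CPM in injured libraries, and Lpcat2 had 312, 314 and 295 against 347, 359 and 325, so neither overlapped there. Bin1 did overlap in that run, with 963, 1027 and 813 CPM in control and 834, 915 and 869 CPM in injured libraries. The share of all genes without overlap in that run is not given here. Each of the 3 calls was lost on leaving out any one replicate number, and the adjusted p then lay between 0.0551 and 0.332. The calls of Bin1 and Lpcat2 were also lost with no filter on low counts (adjusted p = 0.0516 and 0.0629) and with the replicate block (0.0666 and 0.0799), and that of Cst3 was not.

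Other genes of these pathways were read in the same comparison, in which 7.65% of all genes were called. The cysteine protease genes Ctsb and Ctsl fell by 0.50 ± 0.08 and 0.40 ± 0.06, 2 of 13 genes in a list in which 0 rose, beside the fall of their inhibitor Cst3. Among 14 called of 22 cell cycle genes all fell, with Tpx2 at -0.64 ± 0.09. The acyltransferase gene Lpcat4 rose by 0.70 ± 0.19, the 1 called of 13 genes of its list, and in endocytosis Rin3 rose by 0.38 ± 0.07, the 1 called of 17, shares close to or below that of all genes. Mature microglial genes went both ways, 3 of 29 higher and 3 lower.

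Leukocyte markers moved with injury at P7 as well, and their part in the results was not tested. Over both routes 6 of 10 neutrophil and 2 of 7 T and NK cell markers rose, and of 7 monocyte markers 2 rose and 1 fell. The summed neutrophil markers lay between 194 and 259.7 CPM in control and between 285 and 462 CPM in injured libraries of the intranasal run, and between 166 and 219.7 CPM and between 185 and 238 CPM in the intravenous run. In each of these groups at least 1 of the 12 markers had no reads.

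At P12 and at P22 edgeR and DESeq2 called 0 of 7 genes over both routes, against 0.466% and 0.0137% of all genes called by edgeR. Before adjustment 3 and 1 of the 7 had p under 0.05 in edgeR, beside 1539 and 2078 of 14605 genes. The injury difference of Lpcat2 was lower at P12 than at P7 by 0.38 ± 0.09 (adjusted p = 0.0286), the 1 of 7 genes called where 1.16% of all genes were. The adjusted p of this difference lay between 0.00183 and 0.415 over its alternatives, and the call was lost on leaving out any one replicate number and with the replicate block (0.114). Between P22 and P7 edgeR called 0 of 7 genes (3 before adjustment) and 2.19% of all genes (2667 of 14605 before adjustment). DESeq2 called 3, Bin1 (0.35), Cst3 (0.46) and Lpcat2 (-0.30). Differences of the injury effect between routes were called for 0 of 7 genes at P7, P12 and P22 by both tools. In edgeR 0, 1 and 2 of the 7 had p under 0.05 before adjustment, beside 734, 1778 and 1196 of 14605 genes. The edgeR share of all genes called was 0%, 0.192% and 0%. The interval between routes was wide for Selplg at P12, where the difference was 1.14 ± 0.46.

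Adgrg1 lay lower in injured than in control libraries in all 6 runs, by between 0.04 and 0.36 on the log2 scale, and Cst3 in 5 of 6. After these values were seen, the mean injury difference over all 6 runs was taken from the same fit. It restates the values that led to it and is no independent test of them. It was -0.19 ± 0.05 for Adgrg1 (edgeR adjusted p = 0.0373) and -0.21 ± 0.06 for Cst3 (adjusted p = 0.0401), the 2 of 7 genes under the threshold beside 4.75% of all genes. Selplg was -0.19 ± 0.13 (adjusted p = 0.498) and Lpcat2, which differed in sign between runs, 0.00 ± 0.04. Without replicate 1, 2 or 3 of every group 0, 1 and 0 of the 7 were under it, Adgrg1 being the one without replicate 2. In the same contrast P2ry12 was -0.16 ± 0.06 (adjusted p = 0.130) and Ctsl was -0.27 ± 0.04. Markers of other cells were under the threshold there too, and their part in the result was not tested: 5 of 10 neutrophil, 3 of 7 T and NK cell, 2 of 8 border macrophage and 1 of 6 erythroid markers were higher, 1 of 12 oligodendrocyte markers (Cnp, -0.19 ± 0.04) was lower, and of 7 monocyte markers 1 was higher and 1 lower. The T and NK cell markers were Ccl5 (1.11 ± 0.23), Nkg7 (0.85 ± 0.20) and Cd8a (0.59 ± 0.18).

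Treatment with HuMSC was compared with the injured group of the same run at each dose, and these comparisons share the injured libraries with one another and with the injury comparison. Of 126 tests edgeR called 1 and DESeq2 called 2, and 23 had p under 0.05 before adjustment. The share of all genes that DESeq2 called is not given here. Over all genes, between 557 of 14032 (HuMSC20) and 3640 of 14032 (HuMSC50), both in the P22 intravenous run, had p under 0.05 before adjustment in edgeR. The edgeR call was Lpcat2 at HuMSC125 in the P7 intravenous run, a comparison in which 7.31% of all genes were called. Injured libraries had 347, 359 and 325 CPM and HuMSC125 libraries 246, 222 and 297 CPM. The groups did not overlap, and Lpcat2 fell by 0.43 ± 0.12 (adjusted p = 0.0444). The share of all genes without such overlap is not given here.

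HuMSC125 replicates 1 and 2 of that run are neuron-rich, and they are the 2 libraries with the lower Lpcat2. Of 15 neuron markers all rose in this comparison, and their summed level lay between 547 and 4212 CPM against 118 to 159.9 CPM in injured libraries. Without the neuron-rich libraries, which leaves 1 library in the group whose spread is assumed to be that of the other groups, Lpcat2 differed by -0.20 (adjusted p = 1). The call was also lost on leaving out any one of the 3 injured or 3 control libraries, HuMSC50 replicate 1 or 2, or HuMSC125 replicate 1 or 2 (adjusted p from 0.0547 to 0.251), with median-of-ratios size factors (0.0538), with no filter on low counts (0.0598) and with the replicate block (0.0580).

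**Figure D4:**
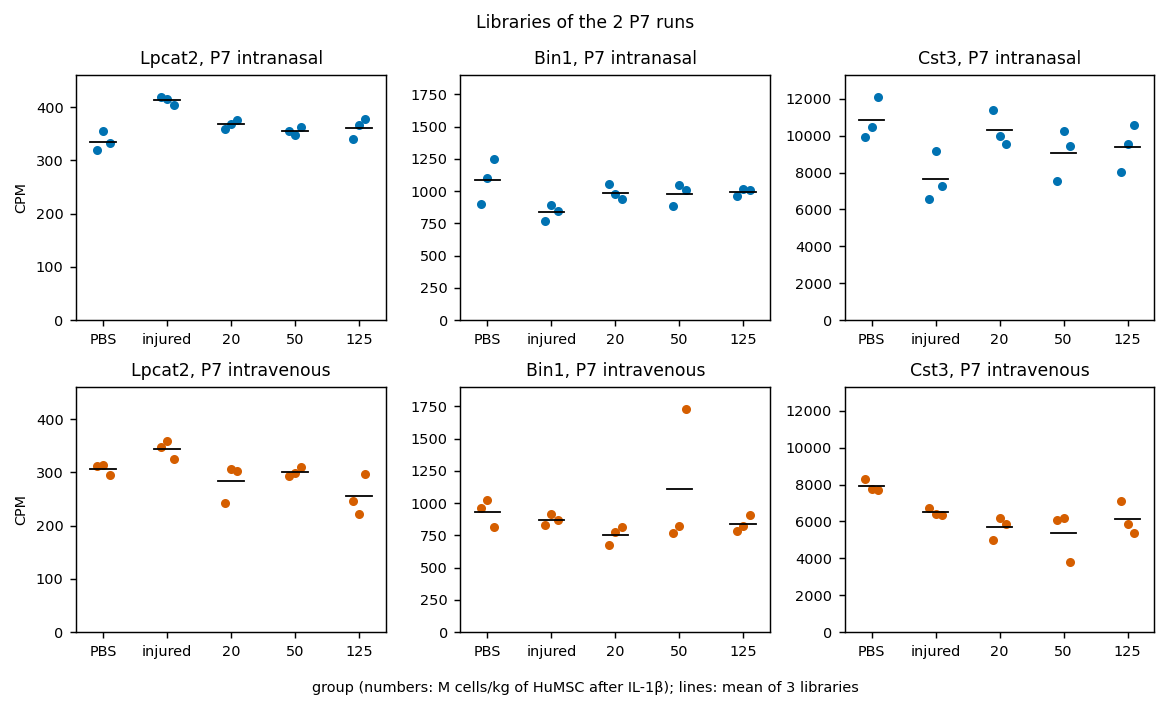
CPM of Lpcat2, Bin1 and Cst3 in each library of the P7 intranasal (top) and intravenous (bottom) runs by group, with lines at the mean of 3 libraries. Lpcat2 is higher in the injured than in the PBS libraries of the intranasal run (404 to 419 against 319.6 to 354), and in the intravenous run it reaches 222 at 125 M cells per kg. Bin1 has 1 library at 1730 in the 50 M cells per kg group.

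For the other doses and runs the share of all genes called was as follows, with 0 of 7 genes called in each. In the P7 intranasal run it was 0.108% at HuMSC20, 0.00721% at HuMSC50 and 0% at HuMSC125, and in the P7 intravenous run 0% at HuMSC20 and 0% at HuMSC50. In the P12 intranasal run it was 0.00721%, 1.22% and 1.05% at the rising doses, and in the P12 intravenous run 0.0216%, 0.036% and 0.0288%. In the P22 intranasal run it was 0%, 0% and 0.0147%, and in the P22 intravenous run 0%, 5.12% and 0.00713%. The nearest to a call was Bin1 at HuMSC50 in the P22 intravenous run, with 614.5, 510.5 and 531 CPM in injured and 390.3, 407 and 483 CPM in treated libraries. The difference was -0.35 (adjusted p = 0.0581), which DESeq2 called (0.0131) and edgeR called without control replicate 1 (0.0489).

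The difference of largest size was that of Selplg at HuMSC50 in the P12 intranasal run, 0.88 on the log2 scale, with 527, 751 and 661 CPM against 339.9, 525 and 190.5 CPM in injured libraries. It was not called (adjusted p = 0.149). Leaving out injured replicate 2 brought it past the threshold (adjusted p = 0.0208). That group of treated libraries lay within the range of, or above, the control libraries (584, 669 and 529.5 CPM) but for replicate 1.

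Averaged over the 3 doses, edgeR called 0 of 42 differences from injured, 9 of which had p under 0.05 before adjustment, and DESeq2 called 1. The DESeq2 call was Lpcat2 in the P7 intranasal run (-0.20, DESeq2 adjusted p = 0.0267), where edgeR gave an adjusted p = 0.259. Over all genes, between 1131 of 13872 (P7 intranasal run) and 2608 of 13594 (P22 intranasal run) had p under 0.05 before adjustment in edgeR. The edgeR share of all genes called was 0.13% and 0% in the P7 intranasal and intravenous runs. It was 1.62% and 0.0288% in those at P12 and 0% and 0.0214% in those at P22. Adgrg1 lay above injured in all 6 runs, by between 0.01 and 0.23. Since injury and treatment share the injured libraries, the 2 sets of values are only set side by side: its injury differences ran from -0.36 to -0.04. Without injured replicate 2 Selplg was called in the P12 intranasal run (1.04, adjusted p = 0.0462), and without HuMSC125 replicate 3 Lpcat2 was called in the P7 intravenous run (-0.33, adjusted p = 0.0362).

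**Figure D5:**
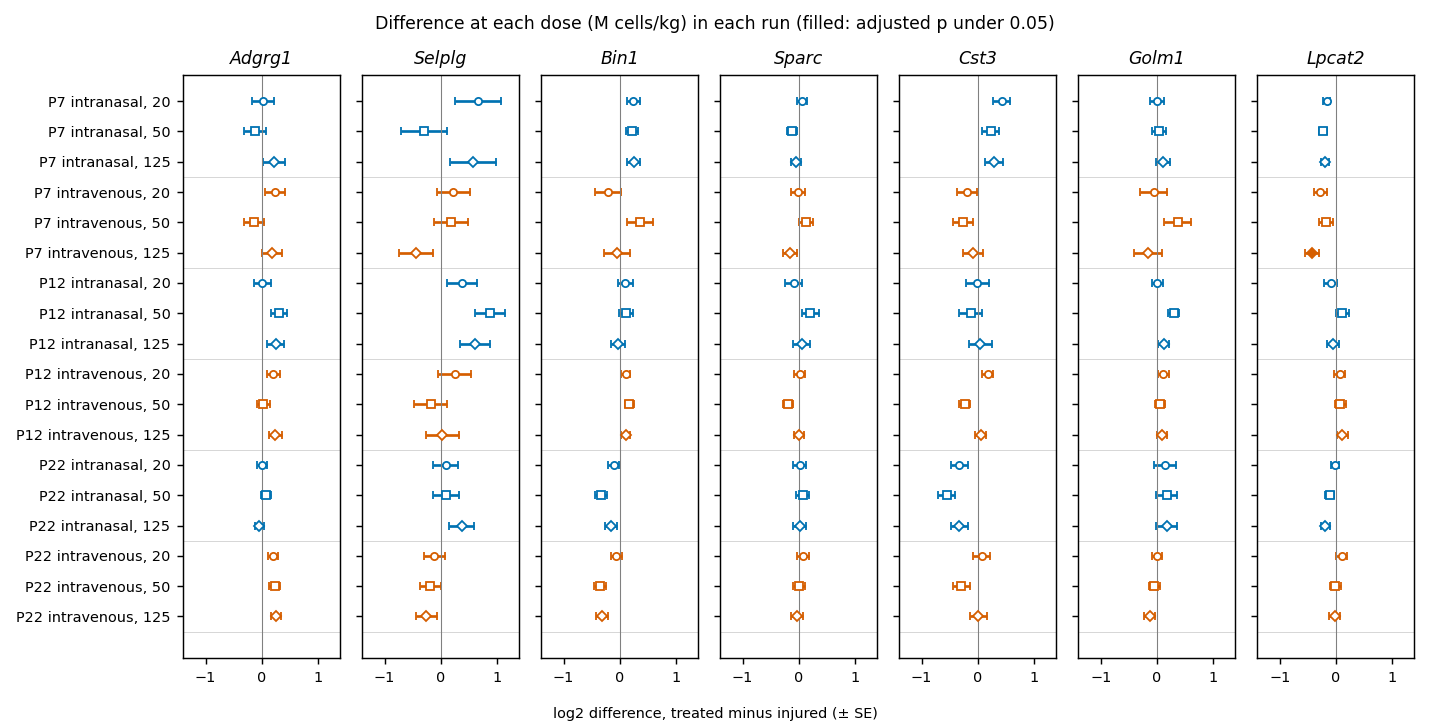
Treated minus injured difference (log2, ± SE) of the 7 genes at 20, 50 and 125 M cells per kg in each run, blue for intranasal and orange for intravenous runs. The filled symbol, Lpcat2 at 125 M cells per kg in the P7 intravenous run at -0.43, is the 1 of 126 tests past an adjusted p of 0.05. The widest spread is that of Selplg, up to 0.88 in the P12 intranasal run.

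Differences between doses were tested jointly. The joint test among the 3 doses called 0 of 42 in edgeR (3 before adjustment) and 1 in DESeq2. Over all genes, between 756 of 13872 (P7 intranasal run) and 2403 of 14032 (P22 intravenous run) had p under 0.05 before adjustment in edgeR. The edgeR share of all genes called was 0% in both P7 runs. It was 0.238% and 0.00721% in the P12 intranasal and intravenous runs and 0% and 0.00713% in the P22 runs.

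Set against controls, the mean of the treated groups also passed the test for 0 of 42 in edgeR (6 before adjustment) and for 2 in DESeq2. Over all genes, between 713 of 13594 (P22 intranasal run) and 3569 of 14032 (P22 intravenous run) had p under 0.05 before adjustment in edgeR. The share of all genes called was 3% and 0.66% in the P7 intranasal and intravenous runs, 0.0505% and 2.49% at P12 and 0.00736% and 3.6% at P22. Both DESeq2 calls were of Cst3, which lay below control in all 6 runs, by between 0.09 and 0.48. It came closest in edgeR in the P12 intravenous run, where controls had 12887, 15929 and 14591 CPM and the 9 treated libraries between 9478 and 14499 CPM (-0.30, adjusted p = 0.0585). Without control replicate 1 of that run the difference was called (-0.37, adjusted p = 0.0336). Cst3 was also called in the P7 intravenous run without HuMSC50 replicate 3 (-0.41, with an adjusted p just under the threshold), and Golm1 in the P22 intravenous run without HuMSC20 replicate 2 (-0.27, adjusted p = 0.0444).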

How the data were processed

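Raw read counts per gene of 90 libraries, deposited by the authors as whole numbers without normalization, were analysed. The submitters' processing notes list HTSeq 0.5.3, STAR 2.7.2d, SAMtools and DESeq2 1.8.1, in no order, and build, annotation and strand setting are not given in the sources used here. The 7 genes, the gene lists and the named-gene rule (the 7 genes, the 2 genes most like each, up to 3 called genes of each list with the smallest p, and 4 identity genes) were chosen with earlier results of these data known. Of 318 listed genes 304 rows were matched, 3 by synonym, and 13 were not.

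With edgeR 4.0.16 (R 4.3.3), each run's 15 libraries were fitted with 5 group means (filterByExpr with minimum count 10 and total 15, TMM, quasi-likelihood F test, Benjamini-Hochberg adjustment over all genes, threshold 0.05). The SE is the log2 difference over the square root of F. A fit of 36 libraries gave injury effects across runs, and 6 run sums gave age differences. Shares of all genes called are those of edgeR throughout, and none is given for DESeq2. Levels are TMM-scaled CPM. Alternatives were median-of-ratios size factors, no filter, DESeq2 1.42.0, a replicate block and leaving out each replicate or run. Neuron-rich libraries were left out in fits within a run only, and each library was taken as a replicate in the age fit only. The fits were tested on simulated data. No libraries of a group were duplicates: chi-square per gene was at least 7.14 in 90 pairs.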

Additional observations from a re-analysis of the deposited data

Results flagged for a closer look

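The injury difference of Lpcat2 differed between ages by a test of the difference itself. It was lower at P12 than at P7 by 0.38 ± 0.09 on the log2 scale (-0.38, edgeR adjusted p = 0.0286, 36 libraries). At P7 the difference was 0.32 in the intranasal and 0.15 in the intravenous run, and at P12 it was -0.11 and -0.20. Age cannot be told apart from run here, and the call was lost on leaving out replicate 1, 2 or 3 of every group (adjusted p = 0.251, 0.101 and 0.415).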

How the results depend on the processing

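Over 5544 alternative values of single genes, 5444 kept their direction and side of the threshold or were uncalled in both fits (223 of these changed sign), 57 lost and 43 gained a call, and 0 called values reversed. Of 927 counts of called genes 57 moved. The DESeq2 counts that follow have no share of all genes beside them. With DESeq2 the counts of the 7 genes were 3 for injury in the P7 intranasal run, 1 for the mean dose there, 1 for treated against control in the P7 and in the P12 intravenous run, 1 among doses in the P12 intravenous run, 1 for injury and 1 for HuMSC50 in the P22 intravenous run, 3 for the P22 and P7 difference in injury, 3 for P12 against P7 and 5 for P22 against P12. With no filter they were 0 for HuMSC125 in the P7 intravenous run, 1 (Cst3) for injury at P7 over both routes, 2 for P12 against P7 and 5 for P22 against P12. HuMSC125 in the P7 intravenous run had 0 with median-of-ratios size factors and 0 without neuron-rich libraries. With each library as a replicate, 6 genes were called for P12 against P7 and 7 for P22 against P12. That fit counts libraries of the same run as independent, so its p-values do not measure the spread between runs. Its counts add no support to the age differences, and its share of all genes called is not given here.

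The replicate numbers did not pair the samples (72 correlations from -0.256 to 0.254). With the replicate block the counts were 0 for HuMSC125 in the P7 intravenous run, 1 (Cst3) for injury at P7 over both routes and 0 for the P12 and P7 difference in injury.

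On leaving out single replicates or runs, counts ranged from 0 to 2 for injury in the P7 intranasal run and from 0 to 1 for HuMSC125, for the mean dose and for treated against control in the P7 intravenous run, for injury, mean dose and HuMSC50 in the P12 intranasal run, for treated against control in the P12 and P22 intravenous runs and for HuMSC50 in the P22 intravenous run. They ranged from 0 to 0 for injury at P7 over both routes and for its P12 and P7 difference, from 0 to 1 for injury over all 6 runs and for P12 against P7, from 3 to 7 for P22 against P7 and from 0 to 5 for P22 against P12. The cause was not tested. On plain library totals the count of genes whose P22 controls all lay above the P7 controls was 6, as reported. The share over all genes is not given for this count. Depth did not limit detection of the 7 genes, each with at least 1062 reads per library.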
